A study of Caenorhabditis elegans with 8 samples.

Results

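The *msp*, *msd*, *ssp*, *ssq* and *sss* genes of *Caenorhabditis elegans* code for the major sperm proteins and the small sperm families around them. They were taken as every gene of the 8 L4 mRNA-seq libraries whose sequence name maps, in the Ensembl annotation of WBcel235, to a gene name with 1 of these 5 prefixes. This gave 52 of 46449 gene names, made up of 31 *msp*, 4 *msd*, 12 *ssp*, 4 *ssq* and 1 *sss* gene. The libraries were made from whole hermaphrodites at the L4 stage, the last larval stage, when the hermaphrodite germline makes sperm. N2 wild-type and *mut-16(pk710)* mutant animals, the latter of which lack the scaffold of the *mutator* complex that amplifies siRNAs, were grown from synchronized L1s at 20ºC (harvested after about 56 h) or at 25ºC (about 39 h). Each of the 4 groups has 2 biological replicates, and temperature and harvest time changed together. A whole-animal library pools sperm-producing germline with every other tissue, so fewer sperm cells and less RNA per sperm cell cannot be told apart in any value given here.

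Major sperm protein (MSP) is the most abundant protein of nematode sperm. It polymerises into filaments that drive the crawling of the mature sperm, and it is also released from sperm as a signal that starts oocyte meiotic maturation and contraction of the gonadal sheath, in part through the Eph receptor VAB-1. Its genes form a large family of nearly identical, mostly intronless copies that lie in groups on chromosomes II and IV, and they are transcribed in spermatocytes. The *msd* and *ssp* genes code for small proteins built on the MSP domain, while *ssq* and *sss* are other sperm-specific families.

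The libraries held between 9914054 and 13227929 expected counts, of which the 52 genes took between 0.198% and 0.323% in wild-type and between 0.0625% and 0.128% in *mut-16* mutants. The *mut-16* gene itself was at 229 to 340 counts in wild-type and 55 to 105 in mutants, which fits the labels. Of the members, 50 passed the filter on low counts and were tested among 13972 genes. *msp-32* (R05F9.3), with 1 to 4 counts per library, and *ssp-37* (W02D9.5), with 0 to 2, did not pass it.

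The rows carry a limit of their own, because the deposited values are estimates that divide a read between transcripts it could come from. Counts further than 0.001 from a whole number were found in at least 1 library for 47 of the 52 members (90.4%), against 2842 of the 19461 gene names with any count (14.6%). All 31 *msp*, all 4 *msd* and all 4 *ssq* genes, *sss-1* and 7 of the 12 *ssp* genes were among them, and for 40 members the counts were not whole in any of the 8 libraries. Only *ssp-16*, *ssp-19*, *ssp-34*, *ssp-35* and *ssp-37* had whole counts throughout. The plainest case was *msd-1* (F44D12.3), listed at 0 in 5 libraries and at 8.77, 24.6 and 19 counts in wild-type 20ºC replicate 2, wild-type 25ºC replicate 2 and *mut-16* 25ºC replicate 1. Its neighbour *msd-3* (F44D12.7) had between 133 and 675 counts in every library. No fold change is given for *msd-1*, and values of single members below are read beside family sums, which do not depend on how reads were divided within a family, although reads divided between families or with other genes still enter them.

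The summed level of every family was lowest in *mut-16* mutants at 25ºC and highest in wild-type at 25ºC. The 31 *msp* genes together had 1956 and 1318 TMM-normalized CPM (counts scaled to library size) in wild-type at 20ºC, 2205 and 2583 in wild-type at 25ºC, 958 and 706 in the mutant at 20ºC and 444 and 461 in the mutant at 25ºC. In every library of the mutant the sum was below that in every wild-type library, and the 2 temperatures did not overlap in either genotype. The mean sum in the mutant was 50.8% of wild-type at 20ºC and 18.9% of wild-type at 25ºC. In log2 units it rose by 0.55 between 20ºC and 25ºC in wild-type, where the 2 replicates at 20ºC differed most, and it fell by 0.88 in the mutant. Scaled by total counts alone, the *msp* sums at the 2 temperatures in wild-type overlapped and the difference was 0.30. No p is given for sums over the members, and with 2 libraries against 2 an exact permutation test cannot give a two-sided p below 0.333.

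The smaller families had the same order of group means. The *msd* sum, mostly *msd-2*, *msd-3* and *msd-4*, was 187 and 182 CPM in wild-type at 20ºC, 249 and 279 in wild-type at 25ºC, 101 and 72 in the mutant at 20ºC and 54.3 and 57.1 in the mutant at 25ºC. For the *ssp* genes it was 181 and 154 CPM in wild-type at 20ºC, 221 and 259 in wild-type at 25ºC, 95.3 and 72.6 in the mutant at 20ºC and 57 and 63.5 in the mutant at 25ºC. The *ssq* genes summed to 198 and 189.8 CPM in wild-type at 20ºC, 224 and 298 in wild-type at 25ºC, 81.8 and 59.2 in the mutant at 20ºC and 55.2 and 63.9 in the mutant at 25ºC, and here the 2 temperatures overlapped in the mutant. *sss-1*, the only member of its family, was at 56.2 and 56.5 CPM in wild-type at 20ºC, 66.9 and 83.6 in wild-type at 25ºC, 28 and 24.5 in the mutant at 20ºC and 17.8 and 14.3 in the mutant at 25ºC. At 25ºC the mutant kept 21.1% of the wild-type mean for *msd*, 25.1% for *ssp*, 22.8% for *ssq* and 21.4% for *sss*.

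**Figure D1:**
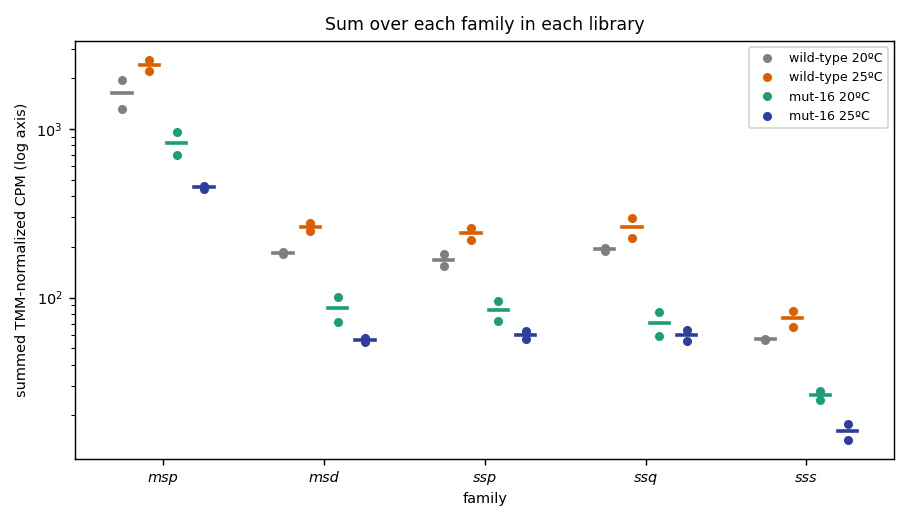
Summed TMM-normalized CPM (log axis) of the *msp*, *msd*, *ssp*, *ssq* and *sss* families in each of the 8 libraries, with points for libraries and bars for group means. The *msp* sum lies between 444 and 461 CPM in *mut-16* mutants at 25ºC, below the 706 to 2583 CPM of all other libraries.

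Gene by gene, the loss in *mut-16* mutants at 25ºC covered nearly all members. Against wild-type at 25ºC, 48 of the 50 tested members were down-regulated at adjusted p ≤ 0.05, where 12.5% of all genes tested were. All 48 were also over 2-fold lower (8.65% of all genes tested). No member was up-regulated by edgeR at an adjusted or unadjusted p ≤ 0.05 or by DESeq2, against 7.68% of all genes. The median log2(fold change) of the members was −2.35, and 0.00 over all genes tested. All 30 tested *msp* genes, 3 of 4 *msd*, 10 of 11 *ssp*, all 4 *ssq* genes and *sss-1* fell. The exceptions were *msd-1* and *ssp-19*, a low-count *ssp* gene at −1.08 (SE 0.47, adjusted p = 0.13). For 49 of the 50 the 2 mutant libraries both lay below the 2 wild-type libraries. The share of all genes tested with this separation was not counted.

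At 20ºC the mutation was accompanied by a smaller loss. Of the 50 members, 38 were down-regulated (5.75% of all genes tested) and 24 of these were over 2-fold lower (3.03%), with a median of −1.0 against −0.05 over all genes. By edgeR, at an adjusted or unadjusted p ≤ 0.05, and by DESeq2, 0 members were up-regulated, against 2.68% of all genes by edgeR. The 38 were 23 *msp*, 3 *msd*, 7 *ssp* and 4 *ssq* genes and *sss-1*. This count rests in part on *mut-16* 20ºC replicate 2, without which 14 were called. Those 14 were called under every alternative, and they were *msp-19*, *msp-33*, *msp-36*, *msp-51*, *msp-55*, *msp-57*, *msp-59*, *msd-2*, *msd-4*, *ssp-9*, *ssq-1*, *ssq-2*, *ssq-4* and *sss-1*.

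Between the temperatures most members that were called rose in wild-type and fell in the mutant. In wild-type, 18 members were up-regulated at 25ºC (11.1% of all genes tested) and 3 were down-regulated (9.62%), with a median of 0.48, which was 0.30 without 20ºC replicate 2 or without 25ºC replicate 2. Of the 18, 5 were over 2-fold higher (5.3%). In *mut-16* mutants, 26 members were down-regulated at 25ºC (4.47%), 12 of them over 2-fold (1.8%), and the median was −0.78. No member was up-regulated there by edgeR, at an adjusted or unadjusted p ≤ 0.05, or by DESeq2, against 7.71% of all genes. Both counts depended on single libraries. In wild-type 4 members were called without 25ºC replicate 2 and 14 without 25ºC replicate 1. In the mutant 10 were called without 20ºC replicate 1 or without 25ºC replicate 1, and 12 without 25ºC replicate 2. The 4 members called for heat stress in wild-type under every alternative were *msp-31*, *msp-142*, *ssp-16* and *ssq-3*. With libraries scaled by total counts alone, the median of all genes tested for heat stress in wild-type moved to −0.25 (0.18 for the mutation at 25ºC and 0.19 for the interaction), that of the members to 0.24 and that of the *ssp* genes from 0.22 to −0.02.

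The difference between the 2 heat effects was tested directly with the interaction term. It was called for 28 of the 50 members, all with a lower heat effect in the mutant (1.5% of all genes tested in that direction). In the other direction edgeR called no member at an adjusted or unadjusted p ≤ 0.05, nor did DESeq2, against 1.59% of all genes. The 28 were 21 *msp* genes, *msd-2*, *msd-3*, *msd-4*, *ssp-10*, *ssp-16*, *ssq-1* and *sss-1*. The median difference over all 50 members was −1.26. Without *mut-16* 25ºC replicate 1, *mut-16* 20ºC replicate 1, wild-type 25ºC replicate 2 or *mut-16* 25ºC replicate 2, the count was 11, 12, 13 or 13. *msp-3*, *msp-31*, *msp-40*, *msp-45*, *msp-64*, *msp-81*, *msp-142* and *msp-152* were called under every alternative, and all except *msp-81* lie on chromosome II.

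Of the 50 members, 35 had the order wild-type 25ºC, wild-type 20ºC, *mut-16* 20ºC, *mut-16* 25ºC in their group means, from high to low. Another 11 had the 2 wild-type groups in the reverse order. *ssq-3*, *ssq-4* and *ssp-16* had the 2 mutant groups in the reverse order, and *msd-1* had another order. Of these neighbours, the 2 wild-type groups did not differ at adjusted p ≤ 0.05 for 29 members and the 2 mutant groups did not for 24.

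By position the members fell into 3 groups, separated by gaps of over 1 Mb, and 8 genes elsewhere. The chromosome II group (4785898 to 5810330) held 13 *msp* genes. On chromosome IV, a left group (4994371 to 5316906) held 9 *msp* genes with *ssp-9*, *ssp-11*, *ssq-2* and *ssq-4*. A right group (9689015 to 10738602) held 9 *msp*, 3 *msd*, 4 *ssp* genes, *ssq-1* and *sss-1*. The 3 groups spanned 1.02, 0.323 and 1.05 Mb and also held 417, 503 and 410 other gene names. In the left chromosome IV group 405 of the 503 were piRNA genes, against 6 on chromosome II and 51 in the right group. All coordinates are those of WBcel235, and 44 of the 52 members have a single exon in this annotation.

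**Figure D2:**
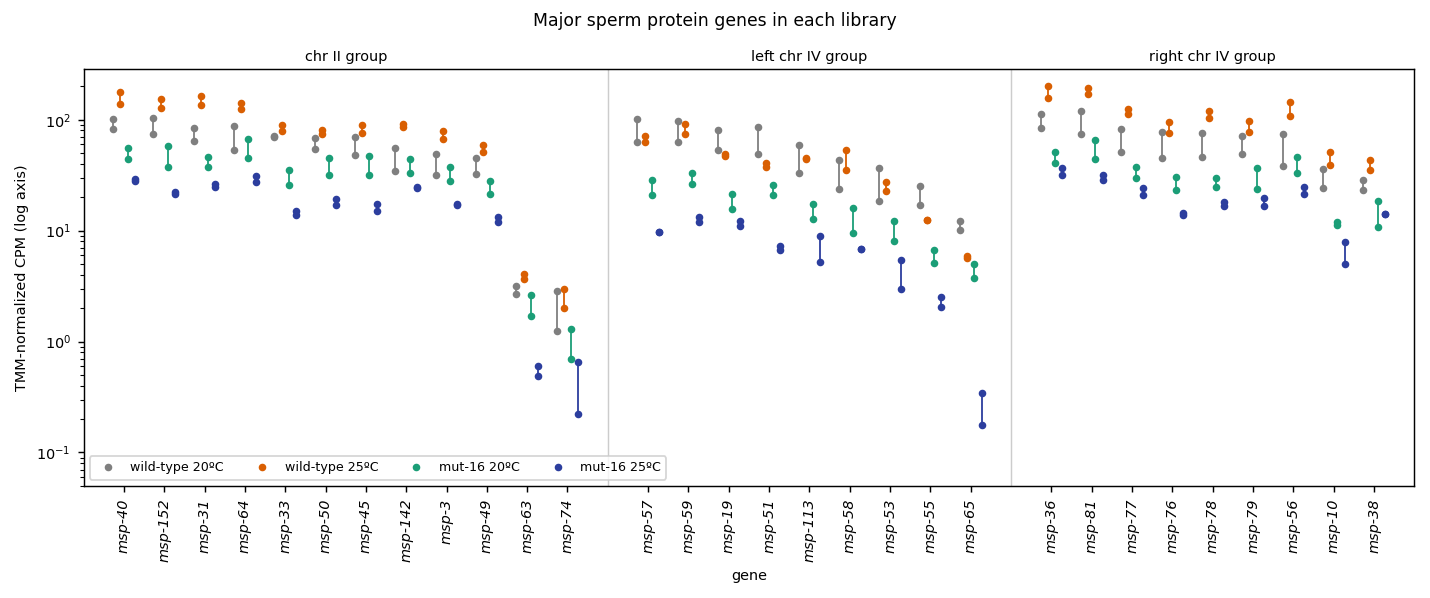
TMM-normalized CPM (log axis) of the 30 tested *msp* genes in each library, by position group and ordered by their mean in wild-type at 20ºC. Points are libraries and lines join the 2 replicates of a group. In the left chromosome IV group *msp-51*, *msp-55* and *msp-65* are lower in wild-type at 25ºC than at 20ºC.

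The 5 *msp* genes with the highest mean levels lie in the chromosome II and right chromosome IV groups. *msp-81* (K07F5.1, chromosome IV, 9836034 to 9836417) was at 119 and 73.8 CPM in wild-type at 20ºC, 169 and 194 in wild-type at 25ºC, 66 and 44.6 in the mutant at 20ºC and 28.8 and 32 in the mutant at 25ºC. Every wild-type library at 25ºC was above every one at 20ºC, and both mutant groups were below them. Its log2(fold change) for heat stress was 0.91 (SE 0.21, adjusted p = 0.0076) in wild-type and −0.86 (SE 0.22, adjusted p = 0.022) in the mutant, with an interaction of −1.77 (SE 0.31, adjusted p = 0.008). *msp-36* (C04G2.4, chromosome IV, 10095433 to 10095816) was at 112 and 85 CPM in wild-type at 20ºC, 156 and 201 in wild-type at 25ºC, 50.9 and 41 in the mutant at 20ºC and 32 and 36.8 in the mutant at 25ºC. It shared the rise in wild-type, 0.86 (SE 0.17, adjusted p = 0.0032), while its heat effect in the mutant was −0.41 (SE 0.18, adjusted p = 0.17) and did not pass the test.

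*msp-40* (C33F10.9, chromosome II, 4825414 to 4825797) had 101 and 82.5 CPM in wild-type at 20ºC, 138 and 178 in wild-type at 25ºC, 55.7 and 44 in the mutant at 20ºC and 28.2 and 29.3 in the mutant at 25ºC. Its heat effects in wild-type and mutant were of the same size and opposite in sign, 0.79 (SE 0.16, adjusted p = 0.0037) and −0.79 (SE 0.17, adjusted p = 0.0076). *msp-152* (ZK546.6, chromosome II, 4933027 to 4933410) had 103 and 74 CPM in wild-type at 20ºC, 128 and 154 in wild-type at 25ºC, 57.4 and 37.5 in the mutant at 20ºC and 21.5 and 22.3 in the mutant at 25ºC. The values of *msp-31* (R05F9.13, chromosome II, 4916179 to 4916562) were 83.7 and 64.7 CPM in wild-type at 20ºC, 136 and 165 in wild-type at 25ºC, 46 and 37.6 in the mutant at 20ºC and 24.9 and 26.1 in the mutant at 25ºC. In each of these 3 genes the mutant libraries at 25ºC were the lowest and the wild-type libraries at 25ºC the highest. Between the genotypes at 25ºC, *msp-152* was at −2.69 (SE 0.21, adjusted p = 2.8e-06) and *msp-31* at −2.56 (SE 0.17, adjusted p = 8.7e-07). Per kilobase of coding sequence in wild-type at 20ºC, *msp-36* was the highest of the 30 tested *msp* genes at 257 CPM, the median *msp* gene was at 158 and *msp-63* was the lowest at 7.66.

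Of the 12 tested *msp* genes on chromosome II, 6 rose with heat stress in wild-type, 10 fell with it in the mutant and 11 were called for the interaction. Over all genes tested these shares were 11.1%, 4.47% and 1.5%. Their medians were 0.60, −1.01 and −1.68. The first of these was 0.96 without wild-type 20ºC replicate 1, 0.38 without replicate 2 and 0.35 with total-count scaling. At 20ºC 6 of the 12 were down-regulated by the mutation (5.75% of all genes), with a median of −0.67, which moved to −0.32 when wild-type 20ºC replicate 1 was left out and to −0.41 when *mut-16* 20ºC replicate 2 was. Of the 9 in the right chromosome IV group, 5 rose with heat stress in wild-type, 3 fell with it in the mutant and 8 were called for the interaction, with medians of 0.84 (0.54 without wild-type 20ºC replicate 2), −0.73 and −1.40. The mutation at 20ºC was accompanied by a fall of 8 of these 9, with a median of −1.0 (−0.65 without wild-type 20ºC replicate 1). *msp-142*, named after its values were seen, with heat effects of 0.98 (SE 0.20, adjusted p = 0.003) in wild-type and −0.65 (SE 0.20, adjusted p = 0.054) in the mutant, was on chromosome II the member least changed by the mutation at 20ºC, −0.23 (SE 0.20, adjusted p = 0.53).

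The difference between position groups was not tested. In the left chromosome IV group, none of its 9 *msp* genes rose with heat stress in wild-type, by edgeR at an adjusted or unadjusted p ≤ 0.05 or by DESeq2, and the 3 members of the whole set that fell in wild-type, *msp-51*, *msp-55* and *msp-65*, all belonged to it. Over all genes tested 11.1% rose and 9.62% fell, so 3 falls among the 50 tested members are no more than the background. The median of the 9 was −0.28 in wild-type, −1.24 in the mutant and −1.08 for the interaction, which was called for 2 of them, *msp-59* and *msp-65* (1.5% of all genes tested in that direction). The wild-type median rested on 1 library, since it turned to 0.12 without wild-type 20ºC replicate 1, and it was −0.59 without replicate 2 and −0.53 with total-count scaling. The interaction median was −0.69 without wild-type 20ºC replicate 2. All 9 were down-regulated by the mutation at 20ºC (5.75% of all genes tested), with a median of −1.53. The 3 lower calls in wild-type did not hold without wild-type 20ºC replicate 1, 25ºC replicate 1 or 25ºC replicate 2.

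*msp-51* (ZK354.5, chromosome IV, 5294957 to 5295340) had 85.2 and 49.1 CPM in wild-type at 20ºC, 40.7 and 37.3 in wild-type at 25ºC, 26 and 20.9 in the mutant at 20ºC and 6.71 and 7.34 in the mutant at 25ºC. *msp-55* (C09B9.6, chromosome IV, 5055631 to 5056014) had 25.2 and 16.9 CPM in wild-type at 20ºC, 12.5 and 12.4 in wild-type at 25ºC, 5.05 and 6.65 in the mutant at 20ºC and 2.06 and 2.51 in the mutant at 25ºC. In both genes the libraries fell from wild-type at 20ºC over wild-type at 25ºC and *mut-16* at 20ºC to *mut-16* at 25ºC without overlap. For heat stress in wild-type *msp-51* had a log2(fold change) of −0.79 (SE 0.21, adjusted p = 0.018) and *msp-55* one of −0.75 (SE 0.21, adjusted p = 0.022). In the mutant the values were −1.73 (SE 0.25, adjusted p = 0.00035) and −1.36 (SE 0.28, adjusted p = 0.0054), and the interaction was not called for either, at −0.94 (SE 0.32, adjusted p = 0.13) and −0.60 (SE 0.35, adjusted p = 0.37).

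*msp-65* (ZK354.1, chromosome IV, 5316523 to 5316906), at the right edge of this group, had the largest fall with heat stress in the mutant of all members. It was at 12.3 and 10.2 CPM in wild-type at 20ºC, 5.89 and 5.68 in wild-type at 25ºC, 5.04 and 3.71 in the mutant at 20ºC and 0.176 and 0.342 in the mutant at 25ºC, and the 2 lowest values stand for 2.15 and 4.59 counts. In the mutant its log2(fold change) was −3.94 (SE 0.41, adjusted p = 2.4e-05), and −0.96 (SE 0.24, adjusted p = 0.012) in wild-type, with an interaction of −2.99 (SE 0.50, adjusted p = 0.0068). Over the fits that left out a library, the fall in the mutant stayed between −4.64 and −3.52. *msp-63* (K05F1.7, chromosome II, 5797065 to 5797448) came next at −1.92 (SE 0.41, adjusted p = 0.0075), from 3.18 and 2.71 CPM in wild-type at 20ºC, 3.63 and 4.03 in wild-type at 25ºC, 2.6 and 1.68 in the mutant at 20ºC and 0.491 and 0.598 in the mutant at 25ºC. Its 6 and 8.02 counts in the mutant at 25ºC leave a wide error, and its heat effect in wild-type was 0.36 (SE 0.31, adjusted p = 0.46).

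At the other end, *msp-38* (K08F4.8, chromosome IV, 10143357 to 10143740) had 28.4 and 23 CPM in wild-type at 20ºC, 35.1 and 43.2 in wild-type at 25ºC, 18.5 and 10.7 in the mutant at 20ºC and 14.2 and 14.1 in the mutant at 25ºC. Its 2 mutant groups overlapped, and heat stress in the mutant gave −0.03 (SE 0.23, adjusted p = 0.96). It also kept the largest share of its wild-type level at 25ºC among the 30 tested *msp* genes, 36.1%, where the median was 17.8% and *msp-65* was the lowest at 4.47%. *msp-77* (F32B6.6), a neighbour of *sss-1*, had 81.7 and 51 CPM in wild-type at 20ºC, 113 and 125 in wild-type at 25ºC, 37.4 and 30.0 in the mutant at 20ºC and 24.4 and 21.1 in the mutant at 25ºC. Its heat effects were 0.84 (SE 0.19, adjusted p = 0.0073) in wild-type and −0.56 (SE 0.21, adjusted p = 0.097) in the mutant.

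The share of the *msp* sum held by each position group needs no scaling between libraries. The left chromosome IV group held 27.7% and 25.2% in wild-type at 20ºC, 15.8% and 15.1% in wild-type at 25ºC, 17.2% and 17.6% in the mutant at 20ºC and 13.0% and 14.1% in the mutant at 25ºC. The group means were 26.5% ± 1.78, 15.4% ± 0.466, 17.4% ± 0.300 and 13.6% ± 0.775 (SD, n = 2), so wild-type at 20ºC lay above every other library. The chromosome II group held 39.7% ± 2.84, 43.9% ± 0.0948, 48.3% ± 0.476 and 46.4% ± 1.07 in the same order. The right chromosome IV group held 33.8% ± 1.05 and 34.3% ± 0.176 in wild-type and mutant at 20ºC and 40.6% ± 0.371 and 40.1% ± 0.290 at 25ºC, so its share was higher at 25ºC in each genotype. No test is given for these shares, whose split between near-identical copies depends on the quantification.

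The other families also have members inside and outside the left chromosome IV group. *ssq-2* and *ssq-4* held 66.5% ± 0.807 of the *ssq* sum in wild-type at 20ºC and 57.4% ± 1.82 at 25ºC, and 63.5% ± 0.437 and 60.5% ± 2.47 in the mutant (SD, n = 2). *ssp-9* and *ssp-11* held 38.9% ± 2.70 and 33.0% ± 0.203 of the *ssp* sum in wild-type and 31.1% ± 1.82 and 25.9% ± 0.0854 in the mutant. For both pairs the share was higher in wild-type at 20ºC than in any other group.

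**Figure D3:**
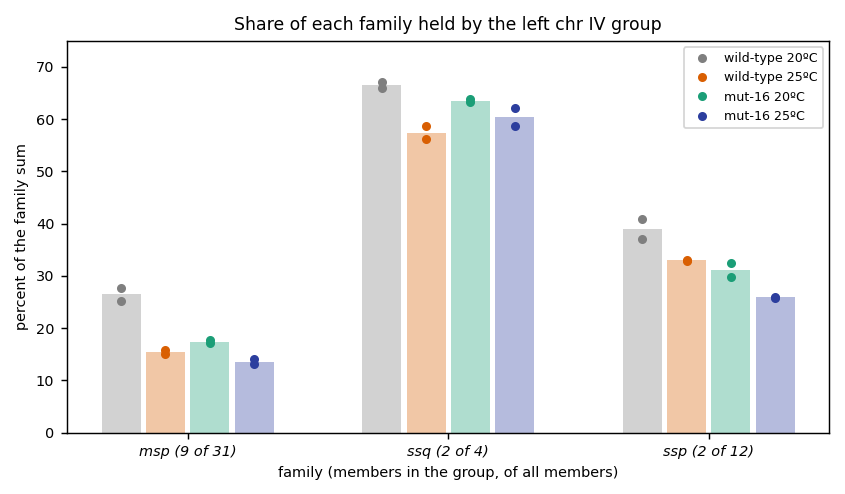
Percent of the summed TMM-normalized CPM of the *msp*, *ssq* and *ssp* families held by the members in the left chromosome IV group, per library (points) and as group means (bars). For *msp* the share is 26.5% in wild-type at 20ºC and between 13.6% and 17.4% in the other groups.

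Genes of other families in the same intervals were set beside the members. Of 57 other tested genes within the left chromosome IV group, 28 were down-regulated in the mutant at 25ºC against wild-type at 25ºC, with a median of −1.13, and 11 at 20ºC, with a median of −0.66. Over all genes tested 12.5% and 5.75% were. Among them, chosen after their values were seen, were *nspd-3* and *nspd-6*, members of a nematode-specific peptide family, at −2.15 and −1.68 at 25ºC. Within the chromosome II and right chromosome IV intervals 36 of 216 and 48 of 216 other genes were down-regulated at 25ºC, where 12.5% of all genes were, and the medians were 0.02 and −0.03. For heat stress in wild-type the medians of the other genes in the 3 intervals were −0.03, 0.09 and −0.08.

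**Figure D4:**
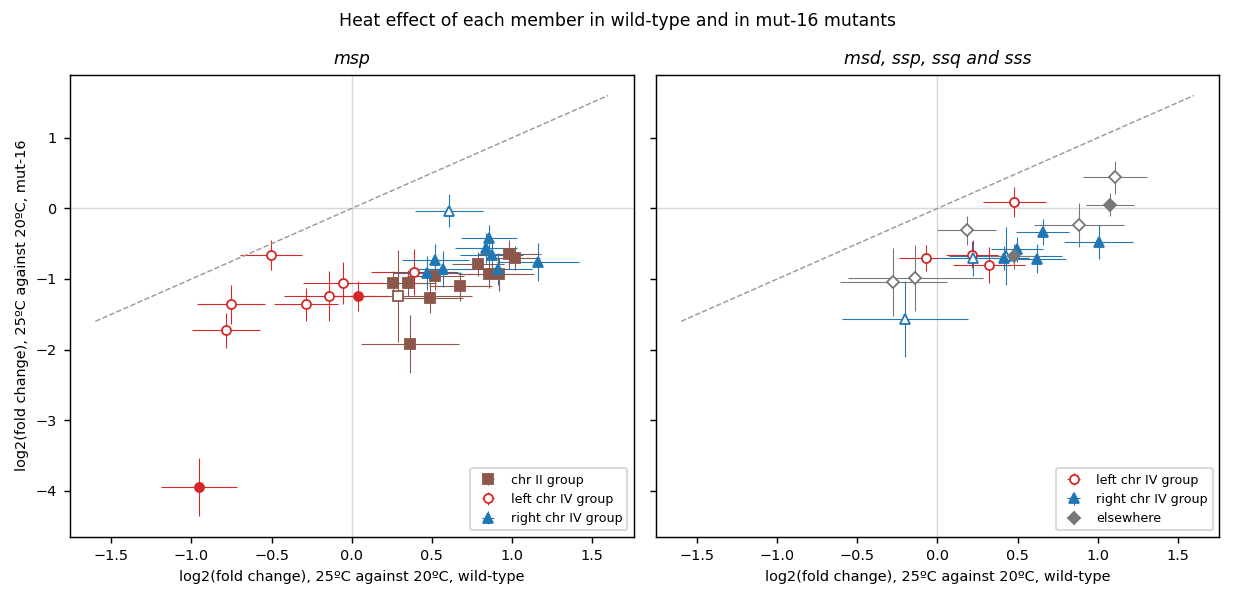
Log2(fold change) between 25ºC and 20ºC in *mut-16* mutants (vertical axis) against that in wild-type (horizontal axis) for 49 members, with SEs from edgeR. *msd-1* is left out. Filled symbols passed the interaction test at adjusted p ≤ 0.05, and the dashed line marks equal heat effects. The 9 left chromosome IV *msp* genes lie between −0.96 and 0.39 on the horizontal axis.

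Among the *msd* genes, *msd-2* (F44D12.5, chromosome IV, 10029083 to 10029412) was at 83 and 65.7 CPM in wild-type at 20ºC, 99 and 111 in wild-type at 25ºC, 34.9 and 26.3 in the mutant at 20ºC and 20.4 and 20.4 in the mutant at 25ºC. *msd-3* (chromosome IV, 10035638 to 10035967) had 37 and 35.1 CPM in wild-type at 20ºC, 51.1 and 59.7 in wild-type at 25ºC, 23.2 and 14.8 in the mutant at 20ºC and 10.9 and 12 in the mutant at 25ºC. *msd-4* (C35D10.11, chromosome III, 4868414 to 4868743), the only member on chromosome III, was at 66.6 and 80.1 CPM in wild-type at 20ºC, 98.4 and 106 in wild-type at 25ºC, 43.3 and 30.9 in the mutant at 20ºC and 21.5 and 24.7 in the mutant at 25ºC. In all 3 genes the 4 groups were separate, with wild-type at 25ºC the highest and the mutant at 25ºC the lowest. In wild-type *msd-2* rose with heat stress by 0.50 (SE 0.16, adjusted p = 0.041) and *msd-3* by 0.62 (SE 0.18, adjusted p = 0.027), and *msd-4* had 0.48 (SE 0.17, adjusted p = 0.056). In the mutant the values were −0.58 (SE 0.17, adjusted p = 0.043), −0.71 (SE 0.20, adjusted p = 0.035) and −0.68 (SE 0.18, adjusted p = 0.022). The rises of *msd-2* and *msd-3* rest on single libraries, since 3 and 5 of the 8 fits that left out a library called them.

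Of the 11 tested *ssp* genes, 3 rose with heat stress in wild-type, 1 fell with it in the mutant and 10 fell with the mutation at 25ºC. The shares over all genes tested were 11.1%, 4.47% and 12.5%, so the count for heat stress in the mutant is near the background. *ssp-16* (T27A3.3, chromosome I, 6102067 to 6102396), whose counts were whole in all libraries, was at 23.1 and 22.6 CPM in wild-type at 20ºC, 43.4 and 52.9 in wild-type at 25ºC, 14.7 and 13.2 in the mutant at 20ºC and 13.8 and 15 in the mutant at 25ºC. It rose with heat stress in wild-type by 1.08 (SE 0.15, adjusted p = 0.00019), a call that held under every alternative. In the mutant the 2 temperatures overlapped, at 0.06 (SE 0.16, adjusted p = 0.87), and the interaction was −1.02 (SE 0.22, adjusted p = 0.026). *ssp-10* (K07F5.9, chromosome IV, 9850702 to 9851031), which lies beside *ssq-1*, had 29.8 and 18.4 CPM in wild-type at 20ºC, 44.1 and 52.8 in wild-type at 25ºC, 14.7 and 12.6 in the mutant at 20ºC and 8.13 and 11.3 in the mutant at 25ºC, with 1.01 (SE 0.21, adjusted p = 0.0045) in wild-type and −0.48 (SE 0.24, adjusted p = 0.23) in the mutant.

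*ssp-9* (E03H12.10, chromosome IV, 4994371 to 4994700) and *ssp-11* (T28H11.6, chromosome IV, 4999485 to 4999814) lie on either side of *ssq-2*. *ssp-9* was at 34.8 and 25.6 CPM in wild-type at 20ºC, 36.2 and 34.2 in wild-type at 25ºC, 10.8 and 10.5 in the mutant at 20ºC and 6.45 and 7.1 in the mutant at 25ºC. *ssp-11* had 39.1 and 31.4 CPM in wild-type at 20ºC, 37 and 50.9 in wild-type at 25ºC, 20.1 and 11.1 in the mutant at 20ºC and 8.32 and 9.29 in the mutant at 25ºC. For both, the 2 temperatures overlapped in wild-type and all mutant libraries were below all wild-type libraries. With the mutation at 20ºC *ssp-9* was at −1.50 (SE 0.18, adjusted p = 0.00013) and *ssp-11* at −1.19 (SE 0.24, adjusted p = 0.0069). With heat stress in the mutant they were at −0.66 (SE 0.19, adjusted p = 0.041) and −0.80 (SE 0.26, adjusted p = 0.062).

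*ssp-34* and *ssp-35*, with whole counts, had heat effects in wild-type of 0.22 and 0.18 that did not pass the test. They fell in the mutant at 20ºC by 0.94 and 0.90 and at 25ºC by 1.86 and 1.39 on the log2 scale. *ssp-33* fell furthest of the family at 25ºC, −2.70 (SE 0.43, adjusted p = 0.00067), from 6.89 and 11.2 CPM in wild-type at 20ºC, 7.43 and 7.42 in wild-type at 25ºC, 3.68 and 1.24 in the mutant at 20ºC and 1.15 and 1.12 in the mutant at 25ºC. *ssp-31* rose with heat stress in wild-type, 0.88 (SE 0.28, adjusted p = 0.04), a call made in 4 of the 8 fits that left out a library. *ssp-19*, *ssp-32* and *ssp-36* were at or below 4.31 CPM in every library. Of these, *ssp-32* and *ssp-36* were down-regulated in the mutant at 25ºC, at −2.20 and −1.51, the former with 1.52 and 6.55 counts in the mutant.

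**Figure D5:**
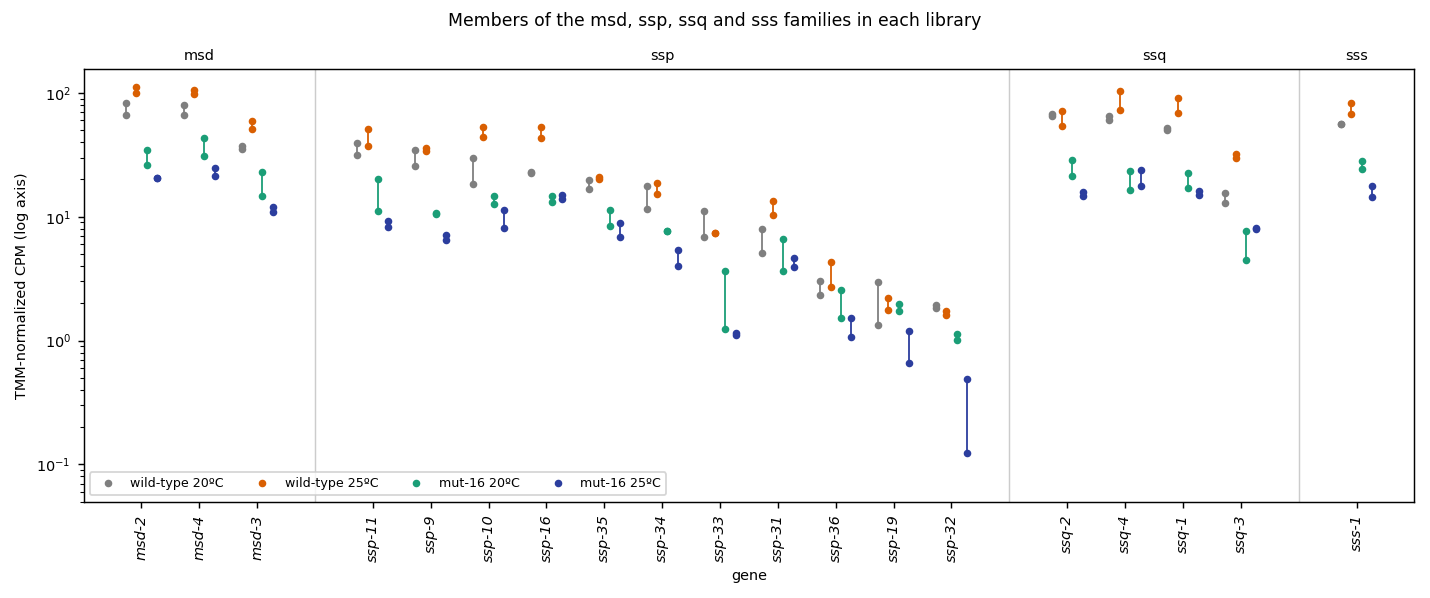
TMM-normalized CPM (log axis) in each library of the 3 *msd*, 11 *ssp* and 4 *ssq* genes plotted and of *sss-1*, ordered by their mean in wild-type at 20ºC within each family. Points are libraries and lines join replicates. *ssp-37* and *msd-1* are left out, and *ssp-16*, *ssq-3* and *ssq-4* have mutant means no lower at 25ºC than at 20ºC.

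The 4 *ssq* genes shared the loss in the mutant and differed in their heat effects. *ssq-1* (K07F5.11, chromosome IV, 9852550 to 9853609) was at 49.7 and 51.7 CPM in wild-type at 20ºC, 68.8 and 90.9 in wild-type at 25ºC, 22.5 and 17 in the mutant at 20ºC and 14.9 and 16.1 in the mutant at 25ºC. *ssq-2* (T28H11.5, chromosome IV, 4996142 to 4997559) had 67.5 and 64.8 CPM in wild-type at 20ºC, 53.7 and 71.8 in wild-type at 25ºC, 28.5 and 21.4 in the mutant at 20ºC and 14.7 and 15.7 in the mutant at 25ºC. *ssq-3* (ZC477.1, chromosome IV, 7111604 to 7112885), which lies between the 2 groups of chromosome IV, was at 15.6 and 13 CPM in wild-type at 20ºC, 29.7 and 32.1 in wild-type at 25ºC, 7.61 and 4.46 in the mutant at 20ºC and 7.92 and 8.09 in the mutant at 25ºC. *ssq-4* (T28H11.1, chromosome IV, 5016479 to 5017766) was at 65.2 and 60.3 CPM in wild-type at 20ºC, 72.2 and 103 in wild-type at 25ºC, 23.2 and 16.4 in the mutant at 20ºC and 17.7 and 24 in the mutant at 25ºC. In wild-type *ssq-3* rose by 1.11 (SE 0.20, adjusted p = 0.0014) and *ssq-1* by 0.66 (SE 0.17, adjusted p = 0.012), whereas *ssq-2* was at −0.07 (SE 0.17, adjusted p = 0.81) and *ssq-4* at 0.48 (SE 0.20, adjusted p = 0.11). In the mutant *ssq-2* fell, −0.71 (SE 0.18, adjusted p = 0.022), and the other 3 did not pass the test, at −0.34, 0.44 and 0.09 for *ssq-1*, *ssq-3* and *ssq-4*. All 4 were down-regulated by the mutation, at −1.67 to −1.27 at 20ºC and −2.37 to −1.94 at 25ºC.

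*sss-1* (F32B6.5, chromosome IV, 9892739 to 9893749) did not pass the test for heat stress in wild-type, 0.42 (SE 0.15, adjusted p = 0.073). It fell with heat stress in the mutant, −0.70 (SE 0.17, adjusted p = 0.013), and with the mutation, −1.11 (SE 0.16, adjusted p = 0.0007) at 20ºC and −2.23 (SE 0.17, adjusted p = 2.1e-06) at 25ºC. Its interaction was −1.12 (SE 0.23, adjusted p = 0.019).

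The replicates of a group differed in a way that touched whole families. In wild-type at 20ºC the *msp* genes had a median ratio of replicate 1 to replicate 2 of 1.52, with 29 of 30 higher in replicate 1, against 1.00 over all genes tested. The ratio was 1.06 for *ssq*, 0.994 for *sss-1* and 1.66 for 19 oocyte and eggshell genes. In the mutant at 20ºC it was 1.36 for *msp*, and at 25ºC it was 0.864 in wild-type and 0.941 in the mutant. Whether stage or cell composition differed between these replicates was not tested.

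Other genes of sperm function had medians of the same sign as the members and of smaller size. Of 24 tested sperm genes outside the families, 15 were down-regulated in the mutant at 25ºC (median −1.29) and 5 at 20ºC (median −0.53), where 12.5% and 5.75% of all genes tested were. Heat stress was accompanied by 1 call upward in wild-type (median 0.18) and 2 downward in the mutant (median −0.54), against 11.1% and 4.47% of all genes. The largest changes at 25ºC were those of *spe-9* and *spe-49*, which act at fertilization, −2.29 (SE 0.61, adjusted p = 0.018) and −2.26 (SE 0.55, adjusted p = 0.011). *spe-9* was at 2.22 and 0.888 CPM in wild-type at 20ºC, 1.59 and 2.3 in wild-type at 25ºC, 0.695 and 0.80 in the mutant at 20ºC and 0.654 and 0.149 in the mutant at 25ºC. *spe-49* had 1.91 and 1.95 CPM in wild-type at 20ºC, 2.33 and 2.92 in wild-type at 25ºC, 1.89 and 0.873 in the mutant at 20ºC and 0.164 and 0.894 in the mutant at 25ºC, so few reads stand behind both. *gsp-3*, which codes for a sperm protein phosphatase, was the 1 gene of this list called for the interaction, −1.11 (SE 0.28, adjusted p = 0.047), with 31.1 and 22.6 CPM in wild-type at 20ºC, 31.7 and 41.8 in wild-type at 25ºC, 18.4 and 15.2 in the mutant at 20ºC and 10.9 and 10.2 in the mutant at 25ºC.

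Of 19 tested regulators of sperm fate and small RNA pathways, 2 were down-regulated by the mutation at each temperature, the Argonaute genes *alg-3* and *alg-4*, whose proteins bind siRNAs against sperm genes. With 12.5% of all genes tested down-regulated at 25ºC and 5.75% at 20ºC, a count of 2 of 19 is near the background. *alg-3* was at 19.8 and 19.6 CPM in wild-type at 20ºC, 17.3 and 31.1 in wild-type at 25ºC, 11 and 11.1 in the mutant at 20ºC and 5.97 and 5.88 in the mutant at 25ºC. *alg-4* had 29.5 and 25 CPM in wild-type at 20ºC, 26.2 and 38.3 in wild-type at 25ºC, 10.9 and 17 in the mutant at 20ºC and 7.28 and 9.01 in the mutant at 25ºC. At 25ºC they were at −2.04 (SE 0.24, adjusted p = 7.3e-05) and −1.98 (SE 0.24, adjusted p = 7.8e-05). The list's median was 0.05 at 25ºC and −0.11 at 20ºC. Heat stress was accompanied by calls downward for *gld-1* (−0.69) and *fem-3* (−1.02) in wild-type (9.62% of all genes tested) and for *alg-3* (−0.90) in the mutant (4.47%).

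A list of genes linked to the MSP signal in oocytes and gonadal sheath, not all of them receptors, had 17 tested genes. Of these, 1 was up-regulated in the mutant at 25ºC (7.68% of all genes), *oma-2*, which codes for an oocyte RNA-binding protein, 1.05 (SE 0.29, adjusted p = 0.021), with an interaction of 1.86 (SE 0.42, adjusted p = 0.031). The next largest change was *ptp-2* at 0.35 (SE 0.20, adjusted p = 0.26), and the median of the list was 0.09. *vab-1*, the Eph receptor, was at 33.8 and 29.6 CPM in wild-type at 20ºC, 28.5 and 29.8 in wild-type at 25ºC, 33 and 31.8 in the mutant at 20ºC and 33.5 and 36 in the mutant at 25ºC, a narrow range with no call in any comparison. Elsewhere in the list, calls were made upward with heat stress for *efn-2* (0.69) in wild-type and for *efn-2* (0.52), *oma-1* (1.09) and *oma-2* (1.53) in the mutant, and downward for *oma-1* (−0.87) in the mutant at 20ºC. Over all genes tested these shares were 11.1%, 7.71% and 5.75%. Both *oma-1* and *oma-2* are also counted among the oocyte and eggshell genes below.

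Markers of other cells moved with some of these groups. The 19 oocyte and eggshell genes summed to 545 and 338 CPM in wild-type at 20ºC, 391 and 417 in wild-type at 25ºC, 281 and 259 in the mutant at 20ºC and 498 and 540 in the mutant at 25ºC. None of the 19 was at 0 in any library. In the mutant 18 of them rose with heat stress (7.71% of all genes), and at 20ºC 12 were down-regulated by the mutation (5.75%). At 25ºC the mutation was accompanied by 4 calls upward (7.68%) and 1 downward (12.5%). There 3 of the 19 had lower values in the mutant. Among them was *perm-2*, at 14.3 and 9.81 CPM in wild-type and 7.36 and 7.67 in the mutant at 25ºC. *oma-2*, *puf-5*, *egg-2*, *egg-5*, *pos-1*, *mex-1* and *mex-5* were called for the interaction, between 1.13 and 1.86. The 12 general germline genes summed to between 350 and 520 CPM in every library. For them 2 calls were made downward by the mutation at 20ºC (5.75% of all genes tested) and 1 upward at 25ºC (7.68%). The latter was *glp-1*, the germline Notch receptor, at 0.71 (SE 0.21, adjusted p = 0.028), and the next largest value at 25ºC was *htp-1* at −0.26, not called. The 10 body muscle genes summed to between 12092 and 16860 CPM, with *act-4* called for the interaction (−0.81). *mlc-3* and *mlc-2*, which code for myosin light chains, had the largest muscle values at 25ºC, −0.37 and −0.28, neither called. Muscle calls were 4 upward (11.1% of all genes tested) and 1 downward (9.62%) for heat stress in wild-type, 1 downward in the mutant (4.47%) and 2 upward for the mutation at 20ºC (2.68%). A single call among 10 or 12 genes is near these shares. The 7 adult-onset genes summed to between 290 and 803 CPM, with 5 down-regulated by the mutation at 20ºC (5.75% of all genes tested) and 2 at 25ºC (12.5%), *col-19* at −1.30 and *vit-2* at −1.09. Between the temperatures, 1 of the 7 was called upward (11.1%) and 3 downward (9.62%) in wild-type. In the mutant 2 were called upward (7.71%) and 0 downward. *col-19* had 25.9 and 20.8 CPM in wild-type at 20ºC and 114 and 67.4 at 25ºC. In the mutant it had 5.57 and 5.60 CPM at 20ºC and 34.0 and 39.6 at 25ºC. Whether stage differed between the temperatures was not tested. The part of these shifts in the values of the members was not tested.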

How the data were processed

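Poly(A) mRNA-seq libraries of L4 animals, 2 per group in 4 groups, were compared. The authors trimmed reads with Cutadapt and mapped them to the WS258 genome with HISAT2 and to the transcriptome with Salmon. The deposited values were treated as Salmon expected counts per sequence name, an inference from values that are not whole numbers. HISAT2 is also named in the submitters' processing notes, and a strand setting is not given in the sources used here. Library totals were 9914054 to 13227929, and this number of reads, with 2 libraries per group, limits the precision of low members. Sequence names were matched to Ensembl release 115 (WBcel235). Symbols that this annotation gives to 2 sequence names (*msd-1*, *ssp-9*) were separated by RefSeq names. The members' annotated lengths were multiples of 3 for 46 of 52 (coding length).

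Counts were rounded and fitted with the edgeR 4.0.16 quasi-likelihood test (R 4.3.3) over all 8 libraries, with TMM factors and filterByExpr (minimum count 10, minimum total count 15), and p-values were Benjamini-Hochberg adjusted over all genes tested. Adjusted p-values in the text are from this fit. A call is an adjusted p of at most 0.05. The 4 comparisons of groups share libraries. The edgeR fit was tested on simulated counts with set fold changes, read for heat stress in the mutant only. Alternatives were DESeq2 1.42.0, RLE or total-count scaling, 2 other filters, a replicate block, only the groups compared, only members with whole counts, and leaving out each library. A member is said to be called under every alternative if each fit that tested it called it. Tables and figures used Python 3.11.15, pandas 2.3.3, numpy 2.4.6 and matplotlib 3.10.9. Over all genes tested, correlations of same-numbered deviations between groups were between −0.16 and 0.073, and the main fit used no pairing. The correlations were not computed over the members alone. Of 30 *msp* genes, replicate 1 was the higher for 29 in wild-type and 27 in the mutant at 20ºC. At 25ºC it was the higher for 5 and 11, so pairing within a temperature was not tested for the members. The planned share of read-length windows held in common by transcripts was not run. The sequences of the genes were not used here.

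The members, lists and tests were chosen with earlier results of these data known. Among *msp* genes, those named in full are the 5 with the highest mean level, the 3 with the largest and the 3 with the smallest fall with heat stress in the mutant, and those called against the majority; no *msp* gene had whole counts throughout. Every tested member of the other families is named, and from the 7 lists those called by the interaction and the 2 most changed in the mutant at 25ºC. Of the lists, *spe-7*, *trp-3* and *efn-1* had no match.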

Additional observations from a re-analysis of the deposited data

Results flagged for a closer look

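For 28 members the effect of 25ºC against 20ºC differed between *mut-16* mutants and wild-type by the interaction test of edgeR at adjusted p ≤ 0.05, and each value here is the log2 effect in the mutant minus that in wild-type. On chromosome II these were *msp-142* (−1.64), *msp-152* (−1.78), *msp-3* (−1.78), *msp-31* (−1.73), *msp-33* (−1.32), *msp-40* (−1.58), *msp-45* (−1.76), *msp-49* (−1.48), *msp-50* (−1.41), *msp-63* (−2.28) and *msp-64* (−1.85). In the left chromosome IV group they were *msp-59* (−1.28) and *msp-65* (−2.99). In the right chromosome IV group the *msp* genes were *msp-10* (−1.43), *msp-36* (−1.27), *msp-56* (−1.92), *msp-76* (−1.39), *msp-77* (−1.40), *msp-78* (−1.53), *msp-79* (−1.25) and *msp-81* (−1.77). Of the other families they were *msd-2* (−1.08), *msd-3* (−1.33), *msd-4* (−1.15), *ssp-10* (−1.49), *ssp-16* (−1.02), *ssq-1* (−1.0) and *sss-1* (−1.12). All 28 values are negative, and the libraries on which the count depends are named in the report.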

How the results depend on the processing

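The loss in the mutant at 25ºC changed least with the processing. In these counts, an alternative that did not test a member was passed over for that member. For example, *msp-63* and *msp-65* were not tested where at least 10 counts were required in every library. Its 48 calls became 46 to 48 with a library left out and 44 with at least 10 counts required in every library, where fewer members were tested, and 45 members were called under every alternative. Calls ranged from 4 to 25 for heat stress in wild-type, from 10 to 35 for heat stress in the mutant, from 14 to 39 for the mutation at 20ºC and from 11 to 36 for the interaction with each library left out. Only 4, 8, 14 and 8 members were called under every alternative in these comparisons. With the replicate block the counts were 21, 23, 36, 48 and 26 (heat stress in wild-type and mutant, the mutation at 20ºC and 25ºC, and the interaction), and the block moved no count by over 1.5 times. Of the 4 tested members with whole counts, 1, 0, 3, 3 and 1 were called in the same order, a smaller number by construction. For the 0, edgeR gave 1 downward at an unadjusted p of at most 0.05 and DESeq2 gave 0. The *msp* sum changed with each library left out between 0.29 and 0.86 (log2) for heat stress in wild-type, −1.08 and −0.64 in the mutant, −1.23 and −0.66 for the mutation at 20ºC and −2.51 and −2.29 at 25ºC. With total-count scaling it was −2.23 at 25ºC, and the cause was not tested. Without *mut-16* 20ºC replicate 1, *ssq-3* was called upward in the mutant (0.85, edgeR adjusted p = 0.042). Depth limits *msp-63*, *msp-65*, *msp-74*, *ssp-19*, *ssp-32*, *ssp-33* and *ssp-36*, which had few counts in the mutant at 25ºC (7.97 and 3.01 for *msp-74*).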
